A study of Homo sapiens with 9 samples.

Results

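The 48 genes described here encode the machinery that copies DNA in S phase, together with the cyclins and E2F factors that start it. They were taken by symbol from the 25680 gene symbols counted in 9 RNA-seq samples of SKNO-1, a line grown from a human acute myeloid leukaemia with the AML1-ETO (RUNX1-RUNX1T1) fusion. The samples formed 3 groups of 3: EV, the control, which the labels do not spell out, and SH2 and SH3, each carrying a different short hairpin RNA (shRNA) against ASXL2. All 3 groups shared the line and its fusion, and the labels gave no other agent, dose or time. Within each group the samples bore the numbers 1, 13 and 25, whose meaning is not given in the sources used here. The extraction text in the labels describes cells sorted from bone marrow, whereas the sample names and cell line field give SKNO-1. The genes were compared between the samples numbered 1 and those numbered 13 and 25, and between EV, SH2 and SH3.

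Before S phase, the origin recognition complex, CDC6 and CDT1 load the ring of MCM proteins onto DNA, a step called licensing that geminin (GMNN) blocks once replication has begun. CDC45 and the GINS complex then turn the loaded ring into an active helicase, primase and polymerase alpha lay down primers, and the clamp PCNA holds polymerases delta and epsilon on the strand. Most of these genes are transcribed at the G1/S boundary, when cyclin E with its kinase releases E2F factors from the retinoblastoma family.

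Depth was 27714431 to 35406063 counts per sample after 1 transcript row per gene was kept, so 3 counts corresponded to 0.0847 to 0.108 counts per 1000000 counts of the sample (CPM). All 48 genes were among the 14199 that passed the filter on low counts, and together they took 0.469% to 0.622% of the counts of a sample. ASXL2, the target, was at 67.9, 67.9 and 74.7 CPM in EV, at 30.4, 36.2 and 36.2 CPM in SH2 and at 26.9, 29.1 and 41.1 CPM in SH3 (numbers 1, 13 and 25 in turn). The 6 knockdown samples lay below all 3 EV samples (two-sided exact permutation test over 84 splits, p = 0.0119). This is the smallest p that the test can give, and its splits take no account of the number. The myeloid genes MPO, RUNX1, RUNX1T1, KIT, CD33, PTPRC, SPI1 and CEBPA passed the filter, whereas CD34 reached at most 10 counts and CSF2RA at most 1 count in any sample. The study's methods grow SKNO-1 with GM-CSF, so the count of CSF2RA, a GM-CSF receptor gene, is not read as absence of its transcript. Why so few of its reads were counted was not tested. No erythroid, epithelial or fibroblast marker passed. The SH3 sample numbered 1 stood furthest from the other samples of its group, with 126 and 136 times the sampling variance expected (chi-square per degree of freedom), against 18.5 to 56.2 for every other pair within a group. Counts of genes called by number are therefore given with and without it.

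The samples numbered 1 held less RNA of most replication genes than the samples numbered 13 and 25. In the edgeR quasi-likelihood fit with group and number as terms, 36 of the 48 genes were lower in the samples numbered 1 and 1, CDT1, was higher, at an adjusted p under 0.05. Over all genes tested, 22.2% were lower and 24.1% higher. The median log2 fold change was -0.28 over the 48 genes and 0.01 over all genes tested. The mean log2 CPM of the 48 genes was 6.19, 6.30 and 6.07 in the EV, SH2 and SH3 samples numbered 1, and 6.38 to 6.49 in the 6 other samples, so the 3 samples lay below the 6. The 3 samples numbered 1 lay below all 6 others for 25 of the 48 genes, against 12.1% of all genes tested. In bulk RNA, fewer cells in S phase and less of these transcripts per cell cannot be told apart, and number cannot be told apart from any culture, day or handling that it stands for.

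**Figure D1:**
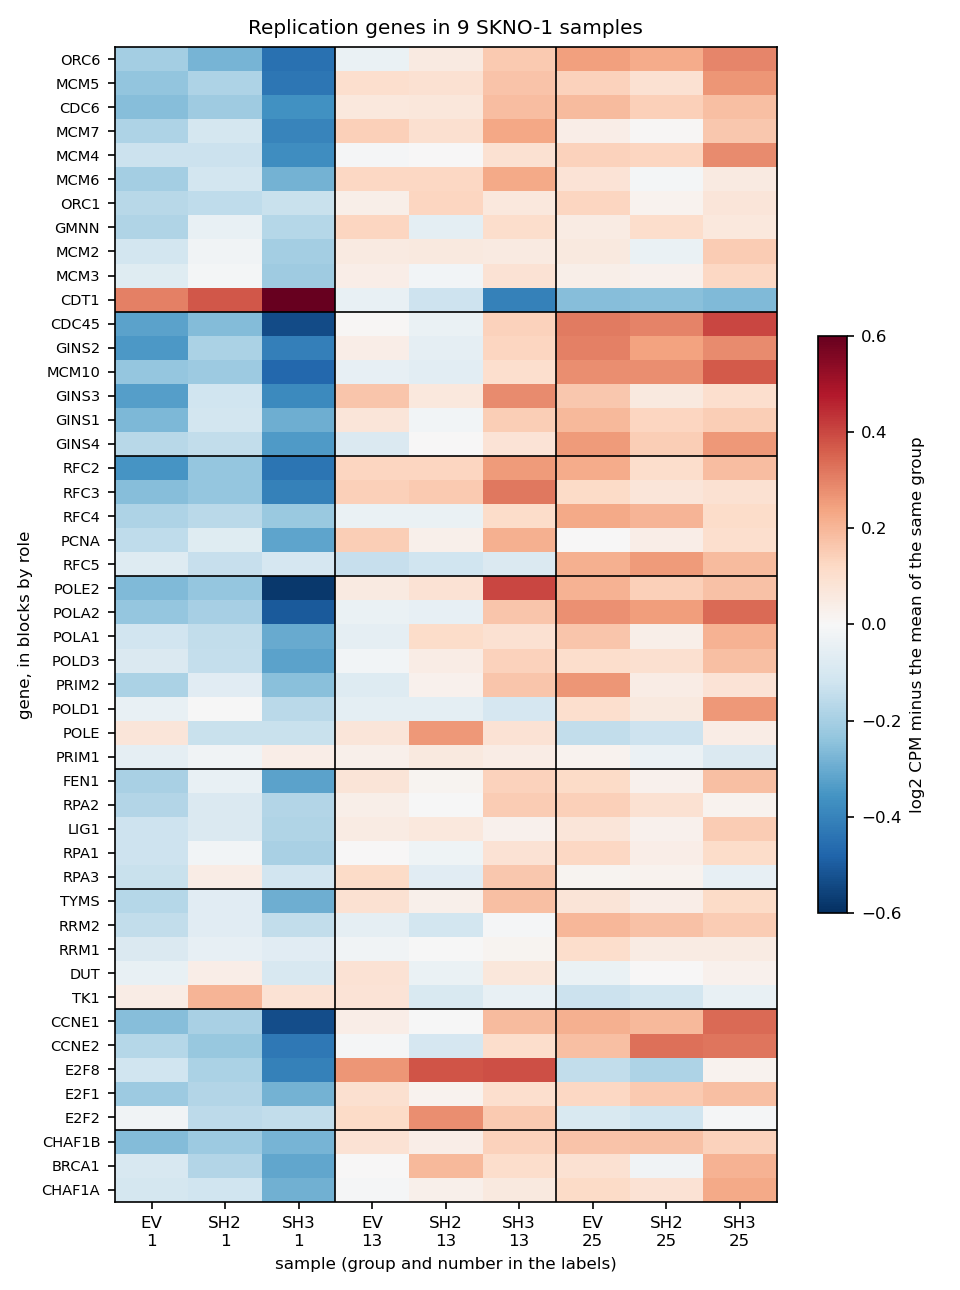
Log2 CPM of the 48 genes (rows, in blocks by role, from origin licensing at the top to chromatin assembly and repair at the bottom) in the 9 samples (columns, by number), each minus the mean of its group. The 3 columns numbered 1 are blue for most rows, whereas CDT1 is red there, and the SH3 sample numbered 1 is the darkest.

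The call rested on all 3 groups. The sample numbered 1 was the lowest of its group for 41 of the 48 genes in EV, for 37 in SH2 and for 45 in SH3, against 38.6%, 37.2% and 41.4% of all genes tested, and for 33 genes in all 3 groups together, against 22.3%. Without the SH3 sample numbered 1, 31 genes were lower and 2, CDT1 and TK1, were higher, with a median log2 fold change of -0.20. Of these 31 genes, 7 were among the 11 of origin licensing, 6 among the 6 of helicase activation, 4 among the 5 of the clamp and its loader, 4 among the 8 polymerase and primase genes, 2 among the 5 of the lagging strand, 1 among the 5 of nucleotide supply, 4 among the 5 G1/S regulators and 3 among the 3 of chromatin assembly and repair. Over all genes tested without that sample, 16.3% were lower and 17.3% higher. With an offset for transcript length, 41 of the 48 genes were lower and 1 higher. Of the 12338 genes with a length, 3892 were then lower and 2477 higher. Without the offset the counts were 3155 and 3415 of all 14199 genes tested, a larger set. Transcript length and the log2 fold change of number 1 had a Spearman correlation of -0.003 over genes with a length. The offset also took in the mean level of each sample, so these counts hold a rescaling of the samples and not length alone. The 11 genes not called in the fit of all samples were MCM2, MCM3, PRIM1, POLD1, POLE, RPA1, RPA3, RRM1, TK1, DUT and E2F2. Leaving out each of the 9 samples in turn left 30 to 38 genes called lower. RFC5 lost its call in all 9 of these fits, GMNN and RRM2 in 5 each, PRIM2 in 3, LIG1 in 2 and RPA2 in 1.

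**Figure D2:**
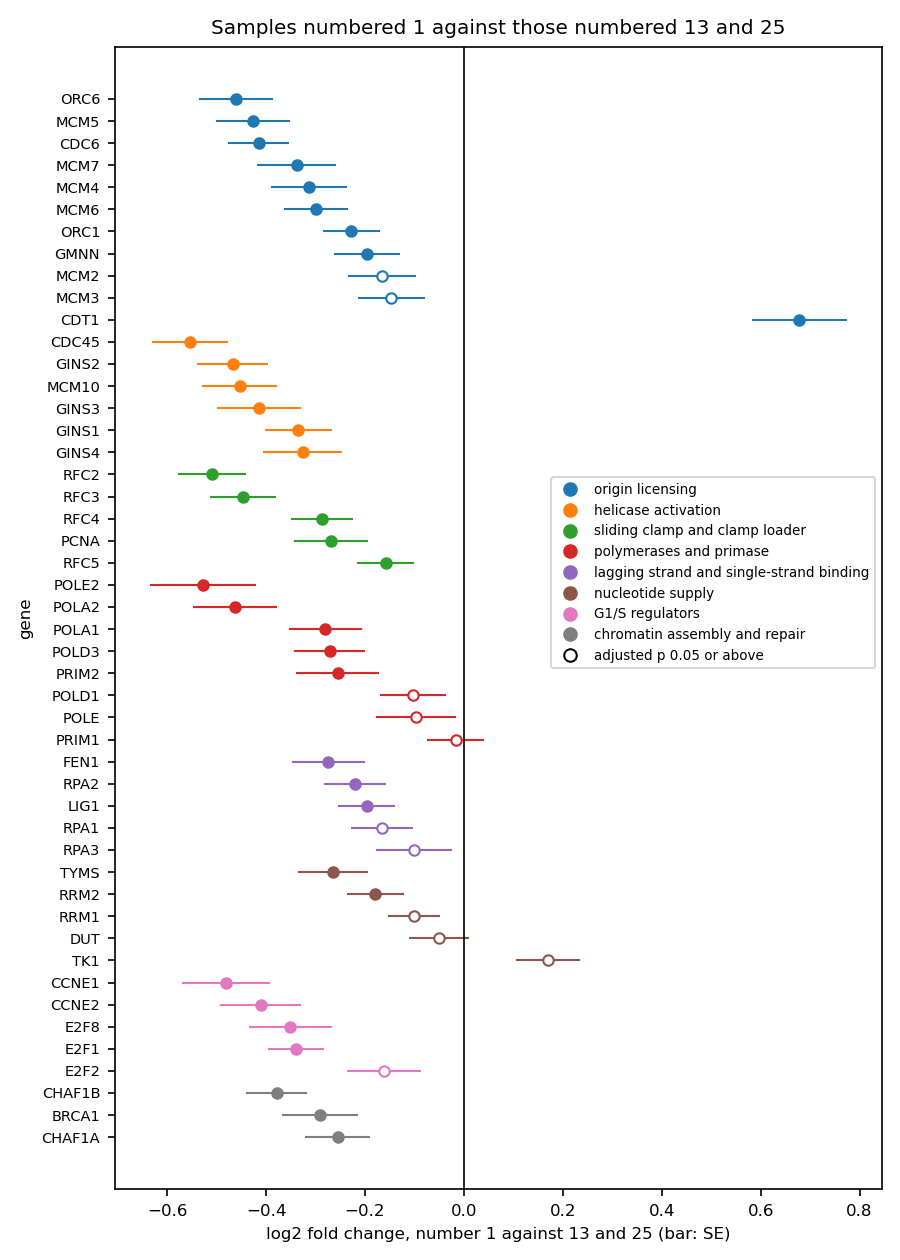
Log2 fold change of the samples numbered 1 against those numbered 13 and 25 for the 48 genes, with its standard error, coloured by role; open circles mark genes with an adjusted p of 0.05 or above. Every filled point but CDT1 lies left of 0, between -0.55 for CDC45 and -0.16 for RFC5.

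The promoters of these genes are shown because the genes moved together and E2F sites are known for many of them. RefSeq sequences (GRCh38.p14) of the 250 bases upstream of the start were matched for 40 of the 48 genes. The E2F letters searched on both strands were TTTCCCGC, TTTCGCGC, TTTGCCGC and TTTGGCGC. They occurred in 14 of the 40 promoters (35%), in 4.30% of the promoters of genes tested and in 2.79% of 27305 promoters. The first promoter listed for each symbol was used, and 7811 further entries of the same symbols were left out. Genes lower in the samples numbered 1 held a match in 10 of 29 promoters (34.5%) and the other members in 4 of 11 (36.4%), and the difference was not tested. Among the other letters searched, CCAAT was in 50.0% of the members' promoters and 34.9% of those of genes tested, and TTTGAA or TTCGAA, the letters of the cell cycle homology region of G2/M promoters, in 5% and 9.96%. The bases just upstream of the start are printed for MCM6, RFC3, POLA2 and E2F1, which were lower in the samples numbered 1, for CDT1, which was higher, and for POLE, which was not called. They read 5′ to 3′ on the strand of the gene and end at the last base before the start, with E2F matches in capitals. MCM6 held 4 matches, which overlap in pairs on opposite strands, starting 152, 148, 90 and 86 bases upstream. E2F1, which encodes an E2F factor itself, held 2. Every promoter printed holds a match, whereas 14 of the 40 promoters did. CDC45, POLE2, RFC2 and CCNE1, the members with the lowest fold changes in the samples numbered 1, held no exact match in the 250 bases searched. Near matches and bases from the start onward were not searched, so a promoter without a match may still hold an E2F site.
MCM6 (chr2:135876444-135876603, minus strand): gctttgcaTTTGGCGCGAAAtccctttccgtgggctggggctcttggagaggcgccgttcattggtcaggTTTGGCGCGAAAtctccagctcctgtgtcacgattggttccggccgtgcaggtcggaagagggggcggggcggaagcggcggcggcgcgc
RFC3 (chr13:33818069-33818148, plus strand): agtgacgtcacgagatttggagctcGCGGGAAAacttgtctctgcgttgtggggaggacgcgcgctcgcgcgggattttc
POLA2 (chr11:65261882-65261961, plus strand): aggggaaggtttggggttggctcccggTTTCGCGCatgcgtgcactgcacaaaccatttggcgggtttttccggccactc
E2F1 (chr20:33686386-33686465, minus strand): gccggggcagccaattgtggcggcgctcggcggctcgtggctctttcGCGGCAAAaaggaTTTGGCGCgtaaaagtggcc
CDT1 (chr16:88803709-88803788, plus strand): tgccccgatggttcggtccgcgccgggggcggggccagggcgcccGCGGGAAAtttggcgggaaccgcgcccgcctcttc
POLE (chr12:132687343-132687422, minus strand): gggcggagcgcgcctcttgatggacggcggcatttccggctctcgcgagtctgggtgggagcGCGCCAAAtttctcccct

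Of the 11 licensing genes, 8 were lower, 1 was higher and 2, MCM2 and MCM3, were not called in the samples numbered 1. CDT1 (chr16:88870197-88875666, plus strand, by GENCODE on GRCh37, as for all gene positions given here), which loads the MCM ring and is degraded once S phase begins, was at 213, 215 and 302 CPM in the EV, SH2 and SH3 samples numbered 1 and at 139.6 to 167 CPM (median 148) in the 6 others. It was higher in all 3, with a log2 fold change of 0.68 ± 0.10 (standard error, SE) and an adjusted p of 0.000714. ORC6 (chr16:46723555-46732306, plus strand), a subunit of the origin recognition complex, was at 35.7, 36.2 and 29.04 CPM against 40 to 51.2 CPM (median 47.03). The 3 samples lay below the 6, and the log2 fold change was -0.46 ± 0.07 (adjusted p = 0.00123). MCM3, a subunit of the ring, was at 304, 316 and 271 CPM against 315 to 342 CPM (median 328), and here the SH2 sample lay within the range of the 6 (log2 fold change -0.15 ± 0.07, adjusted p = 0.0987). The other ring subunits MCM4, MCM5, MCM6 and MCM7 had log2 fold changes of -0.31 ± 0.08, -0.43 ± 0.07, -0.30 ± 0.06 and -0.34 ± 0.08, each without overlap between the 3 samples and the 6. CDC6, the loader of the ring, was lower by 24.98% and ORC1, the largest subunit of the recognition complex, by 14.6%. GMNN, the inhibitor of CDT1, was lower by 12.7% (adjusted p = 0.0338), with the SH2 sample numbered 1 inside the range of the others.

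CDT1 stood higher beside its inhibitor in the sample numbered 1 of every group, but CDT1 alone already lay above the 6 others. GMNN had log2 fold changes of -0.27, -0.07 and -0.26 in EV, SH2 and SH3, so it hardly differed in SH2. The ratio of CDT1 to GMNN in CPM was 5.14 in the EV sample numbered 1, 4.21 in SH2 and 7.18 in SH3, against 2.46 to 3.26 in the 6 others. Since both genes keep their length across samples, the ratio can be compared between samples but not read as a ratio of molecules. The 3 values lay above the 6, with the SH3 sample highest.

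All 6 helicase activation genes were lower in the samples numbered 1, and all 6 were also called without the SH3 sample numbered 1. CDC45 (chr22:19466980-19508135, plus strand), the factor that joins the ring and GINS into the moving helicase, had the lowest fold change of the 48 genes. It was at 64.9, 75.5 and 55.8 CPM in the EV, SH2 and SH3 samples numbered 1 and at 81.6 to 111 CPM (median 94.97) in the others. The 3 lay below the 6, 31.9% lower in the fit (log2 fold change -0.55 ± 0.08, adjusted p = 0.000649). GINS2 (chr16:85709804-85723679, minus strand) was at 36.6, 42.2 and 31.8 CPM against 46.2 to 57.3 CPM (median 49.6), again without overlap (log2 fold change -0.47 ± 0.07, adjusted p = 0.000967). GINS4 had the smallest difference of the role, 17.8, 19.5 and 16.2 CPM against 18.8 to 24.6 CPM (median 22.8) (log2 fold change -0.33 ± 0.08, adjusted p = 0.00772). Its SH2 sample numbered 1 lay above the lowest of the 6. GINS1, GINS3 and MCM10, a factor needed to start the helicase, were lower by 20.7%, 24.9% and 26.98%, without overlap. The ratio of CDC45 to MCM2 was 0.215 to 0.247 in the samples numbered 1 and 0.262 to 0.368 in the others, so the 3 ratios lay below the 6. Ratios of CCNE1 to CCNE2 (0.823 to 0.967 against 0.860 to 1.04) and POLE to POLE2 (14.7 to 23.5 against 11.4 to 18.9) overlapped. So did that of RRM2 to RRM1 (2.12 to 2.21 against 2.06 to 2.46).

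**Figure D3:**
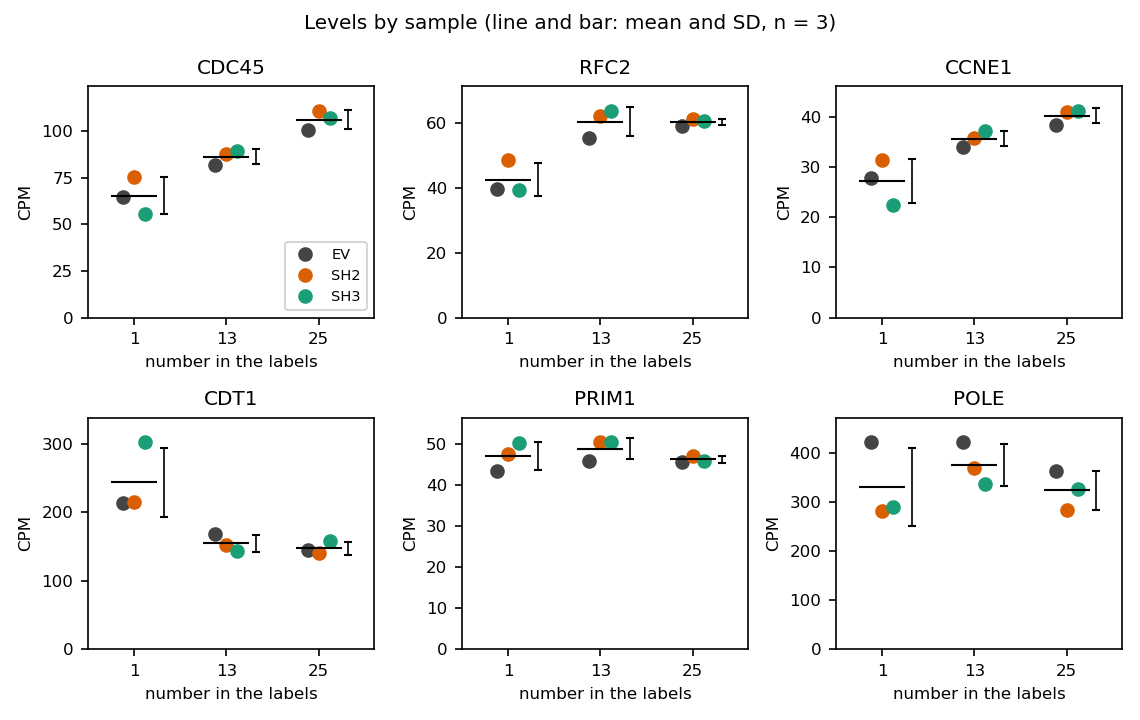
CPM of CDC45, RFC2, CCNE1, CDT1, PRIM1 and POLE in each sample, by number, with points coloured by group, a line at the mean of each number and its SD beside it (n = 3). For CDC45, RFC2 and CCNE1 the points numbered 1 lie below all others, for CDT1 above them, and for PRIM1 and POLE the numbers overlap.

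The clamp and its loader were lower as a group, with 5 of 5 genes called. RFC2 (chr7:73645829-73668788, minus strand), a small subunit of the loader that opens the PCNA ring, was at 39.7, 48.4 and 39.4 CPM in the EV, SH2 and SH3 samples numbered 1 and at 55.4 to 63.7 CPM (median 60.9) in the others. The 3 lay below the 6 (log2 fold change -0.51 ± 0.07, adjusted p = 0.000588). RFC3 (chr13:34392206-34540695, plus strand), another loader subunit, was at 72.6, 80.2 and 66.8 CPM against 93.7 to 110.2 CPM (median 97.4), without overlap (log2 fold change -0.45 ± 0.07, adjusted p = 0.000913). RFC5 was at 32.4, 32.8 and 34.7 CPM against 31.1 to 43.01 CPM (median 37.4). Its samples numbered 1 lay inside the range of those numbered 13 and 25, and its call (log2 fold change -0.16 ± 0.06, adjusted p = 0.045) was the one lost whenever any sample was left out. RFC4 and PCNA, the clamp itself, were lower by 18.04% and 16.99%, with overlap.

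Of the 8 polymerase and primase genes 5 were lower and 3 were not called. POLE2 (chr14:50110273-50155140, minus strand), the second subunit of polymerase epsilon, was at 17.96, 19.2 and 13.1 CPM in the samples numbered 1 and at 22.2 to 25.9 CPM (median 24.3) in the others. The 3 lay below the 6 (log2 fold change -0.53 ± 0.11, adjusted p = 0.00332). POLA2 (chr11:65029384-65073430, plus strand), the second subunit of polymerase alpha, was at 39.96, 44.8 and 31.9 CPM against 45.6 to 61.2 CPM (median 53.7), also without overlap (log2 fold change -0.46 ± 0.08, adjusted p = 0.00216). PRIM1, the catalytic subunit of primase, was at 43.3, 47.6 and 50.2 CPM against 45.6 to 50.4 CPM (median 46.5), a log2 fold change of -0.02 ± 0.06 (adjusted p = 0.831). Its EV sample numbered 1 lay below the 6 others and the other two lay among them. The catalytic subunits POLD1 and POLE had log2 fold changes of -0.10 ± 0.07 and -0.10 ± 0.08 and were not called, whereas POLA1, POLD3 and PRIM2 were lower by 17.6%, 17.2% and 16.2%.

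On the lagging strand 3 of 5 genes were lower. FEN1 (chr11:61560383-61564710, plus strand), the nuclease that trims the flaps of Okazaki fragments, was at 120.2, 137 and 107 CPM in the samples numbered 1 and at 143 to 151 CPM (median 146) in the others, without overlap (log2 fold change -0.27 ± 0.07, adjusted p = 0.0126). RPA2, the middle subunit of the protein that coats single-stranded DNA, was at 82.6, 99.98 and 90.8 CPM against 95.6 to 114 CPM (median 105). Its SH2 sample numbered 1 overlapped the others (log2 fold change -0.22 ± 0.06, adjusted p = 0.0154). RPA3, the smallest subunit, was at 22.4, 31.8 and 27.99 CPM against 24.8 to 33.97 CPM (median 29.4) (log2 fold change -0.10 ± 0.08, adjusted p = 0.302). LIG1, the ligase that joins the fragments, was lower by 12.7%, and RPA1, the large subunit, just missed the threshold (log2 fold change -0.17 ± 0.06, adjusted p = 0.0509).

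Nucleotide supply was the role with the smallest median difference, a log2 fold change of -0.10, and 2 of its 5 genes were lower. TYMS (chr18:657653-673578, plus strand), which makes thymidylate, was at 306, 371 and 290.4 CPM in the samples numbered 1 and at 362 to 403 CPM (median 391) in the others (log2 fold change -0.26 ± 0.07, adjusted p = 0.0121). RRM2, the regulated subunit of ribonucleotide reductase, was at 177, 197 and 184 CPM against 188 to 234 CPM (median 214) (log2 fold change -0.18 ± 0.06, adjusted p = 0.0269). Both overlapped, in the SH2 sample. DUT, which removes dUTP, was at 191, 232 and 196 CPM against 191 to 226 CPM (median 216) (log2 fold change -0.05 ± 0.06, adjusted p = 0.523). TK1, the salvage enzyme thymidine kinase, had the only positive value besides CDT1, 0.17 ± 0.06 (adjusted p = 0.0527). Beside TYMS it stood higher in the samples numbered 1, with a TK1 to TYMS ratio of 0.548 to 0.640 against 0.409 to 0.487. RRM1, the large subunit of the reductase, had a log2 fold change of -0.10 ± 0.05 and was not called.

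Among the G1/S regulators 4 of 5 were lower. CCNE1 (chr19:30302898-30315219, plus strand), a cyclin that drives entry into S phase, was at 27.8, 31.3 and 22.5 CPM in the samples numbered 1 and at 34.1 to 41.2 CPM (median 37.8) in the others. The 3 lay below the 6 (log2 fold change -0.48 ± 0.09, adjusted p = 0.00226). CCNE2, its paralog, was at 33.8, 32.4 and 24.7 CPM against 35.4 to 47.7 CPM (median 39.8), again without overlap (log2 fold change -0.41 ± 0.08, adjusted p = 0.003). E2F2, an activating E2F, was at 22.6, 19.1 and 17.7 CPM against 19.5 to 25.7 CPM (median 21.7) and overlapped (log2 fold change -0.16 ± 0.08, adjusted p = 0.0993). E2F1 was lower by 20.97% without overlap. E2F8, a repressor of E2F targets, was lower by 21.6% with overlap, since its samples numbered 25 were also low.

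All 3 chromatin assembly and repair genes were lower. CHAF1B (chr21:37757690-37791313, plus strand), a subunit of the histone chaperone that packs new DNA, was at 25.1, 25.95 and 23.9 CPM in the samples numbered 1 and at 31.03 to 34.1 CPM (median 31.97) in the others, without overlap (log2 fold change -0.38 ± 0.06, adjusted p = 0.0013). BRCA1, a recombination factor, was at 74.7, 64.3 and 57.6 CPM against 71.6 to 85.2 CPM (median 81.3) and overlapped only in its EV sample numbered 1 (log2 fold change -0.29 ± 0.08, adjusted p = 0.0116). CHAF1A, the large chaperone subunit, was at 92.5, 92.8 and 77.4 CPM against 98.5 to 111 CPM (median 105), without overlap (log2 fold change -0.25 ± 0.07, adjusted p = 0.00999).

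Other cell cycle genes were compared in the same fit, in which 22.2% of all genes tested were lower and 24.1% higher. Of 51 further replication and S-phase genes, 37 were lower in the samples numbered 1 and 2 were higher, with a median log2 fold change of -0.28. CLSPN, a checkpoint adaptor at the fork, was at 46.5, 37.3 and 24.2 CPM against 54.8 to 69.9 CPM (median 58.01) (log2 fold change -0.76 ± 0.12). CDC25A, the phosphatase that activates CDK2, and UHRF1, which carries DNA methylation through replication, were lower by 34.2% and 30.6%. The 2 higher genes, named after their values were seen, were ORC2 and ORC4, both subunits of the origin recognition complex (0.26 ± 0.07 and 0.24 ± 0.06). In the same list their partner ORC5 was lower (-0.35 ± 0.08) and ORC3 was not called (-0.12 ± 0.06). Without the SH3 sample numbered 1, 32 of the 51 genes were lower and 2 higher, against 16.3% and 17.3% of all genes tested. Their median was then -0.22, and CLSPN had a log2 fold change of -0.55 ± 0.07.

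In the E2F and RB family 7 of 14 genes were lower and 4 higher, against 22.2% and 24.1% of all genes tested. E2F6, a repressor, was lowest at 16.2, 16.4 and 13.01 CPM against 21.2 to 24.9 CPM (median 23.2) (log2 fold change -0.61 ± 0.07), and E2F7 was lower too (-0.49 ± 0.10). E2F5 was higher (0.53 ± 0.17) at no more than 2.08 CPM. Without the SH3 sample numbered 1, 4 genes of the family were lower and 4 higher, against 16.3% and 17.3% of all genes tested. Of 10 CDK inhibitor and quiescence genes 4 were higher and 1 lower, against 24.1% and 22.2% of all genes tested. CCNG2, a cyclin linked to arrest, was at 31.7, 33.3 and 58.3 CPM in the samples numbered 1 against 10.4 to 16.7 CPM (median 13.4) (log2 fold change 1.56 ± 0.16), CDKN1C, which encodes p57, at 7.12, 7.67 and 17.02 CPM against 2.15 to 6.02 CPM (median 3.26) (1.54 ± 0.27), and BTG1, an antiproliferative gene, at 22.4, 34.99 and 43.6 CPM against 15.3 to 22.3 CPM (median 19.8) (0.77 ± 0.10). The SH3 sample was the highest for all 3 of these genes. Without it, 4 genes of the list were again called higher and 1 lower, against 17.3% and 16.3% of all genes tested. The median of the list was then 0.09, against 0.24 with that sample. The log2 fold changes were 1.26 ± 0.11 for CCNG2, 0.93 ± 0.14 for CDKN1C and 0.62 ± 0.09 for BTG1. Of 30 G2/M genes 12 were lower and none higher, against 22.2% and 24.1% of all genes tested, with a median of -0.18. The lowest were FOXM1, the transcription factor of G2/M genes (-0.48 ± 0.08), the mitotic kinase PLK1 (-0.44 ± 0.08) and CDC20 (-0.41 ± 0.08). Without the SH3 sample numbered 1, 7 G2/M genes were lower, against 16.3% of all genes tested, and the median was -0.096.

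**Figure D4:**
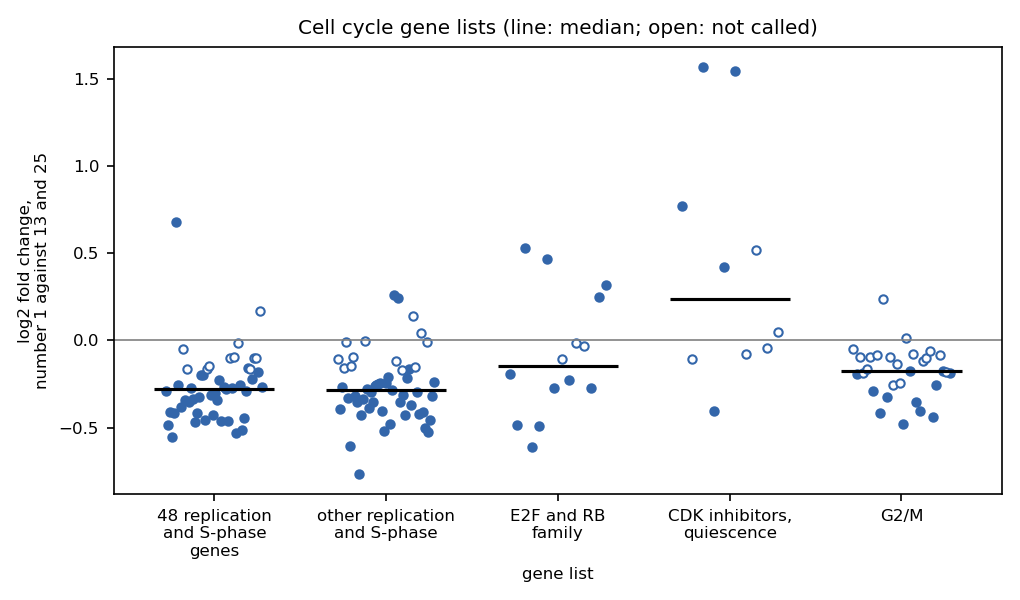
Log2 fold change of the samples numbered 1 against those numbered 13 and 25 for each gene of 5 cell cycle lists, with the median as a line and genes not called as open circles. The medians are -0.28 for the 48 genes, -0.28 for the other replication genes, -0.15 for the E2F and RB family, 0.24 for the CDK inhibitors and -0.18 for G2/M genes.

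Markers of other blood cells were at low levels in every sample. The B cell gene CD22 was at 1.49, 1.34 and 3.37 CPM in the EV, SH2 and SH3 samples numbered 1 and at 0.0347 to 0.816 CPM (median 0.254) in the others, and CD79A was at 2.34, 2.85 and 3.23 CPM against 1.67 to 2.77 CPM (median 1.97). CD22 did not overlap between the 3 samples and the 6, CD79A did, and both were called higher (log2 fold changes 2.47 ± 0.46 and 0.43 ± 0.15). Without the SH3 sample numbered 1, CD22 was called (1.69 ± 0.42) and CD79A was not (0.29 ± 0.17). MS4A1 was at 0. The 6 T and NK cell markers summed to 1.78 to 2.93 CPM in the samples numbered 1 and 2.29 to 2.70 CPM in the others, with 2 passing the filter, neither called (1 lower without the SH3 sample numbered 1), and CD3E at 0. Of 8 myeloid markers tested, KIT and PTPRC were higher and none was lower, against 24.1% and 22.2% of all genes tested. Without the SH3 sample numbered 1, 3 were higher, against 17.3%. The part of these cells in the differences was not tested.

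The difference of the samples numbered 1 was then set side by side in the 3 groups. Its median over the 48 genes was -0.25 in EV, -0.20 in SH2 and -0.44 in SH3 on the log2 scale, and SH3 had the most negative value for 38 genes. The edgeR interaction of group with number called 0 of the 48 genes and 4.92% of all genes tested. At an unadjusted p under 0.05 it gave 17 of the 48 genes against 23.0% of all genes tested, and the DESeq2 likelihood ratio test called 0. CDT1 came nearest, with log2 fold changes of 0.45 in EV, 0.56 in SH2 and 1.00 in SH3 (adjusted p = 0.0589), followed by CCNE1 with -0.38, -0.29 and -0.80 (adjusted p = 0.067). Each group has 1 sample numbered 1, so the SH3 values rest on the sample that stood apart.

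The samples numbered 13 and 25 differed from each other in few of these genes. At an adjusted p under 0.05, RFC5 was higher in those numbered 25 (log2 fold change 0.33 ± 0.07, adjusted p = 0.0197) and E2F8 was lower (-0.45 ± 0.10, adjusted p = 0.0247), against 2.77% higher and 3.10% lower over all genes tested. RFC5 was at 31.1, 33.2 and 35.1 CPM in the EV, SH2 and SH3 samples numbered 13 and at 39.6, 43.01 and 42.5 CPM in those numbered 25. E2F8 was at 37.3, 37.9 and 37.1 CPM and at 28.01, 25.6 and 28.8 CPM. Neither overlapped. Helicase activation had the largest median of any role, 0.23 on the log2 scale, with MCM10 at 0.31 ± 0.09 (adjusted p = 0.0609) and CDC45 at 0.30 ± 0.09 (adjusted p = 0.0668). The count depended on 1 sample: without the SH3 sample numbered 1, 11 genes were higher and 2 lower, against 9.87% and 9.37% of all genes tested. Without any 1 of EV 13, EV 25, SH2 13, SH2 25 or SH3 25 it was 0 in both directions, and without SH3 13 it was 4 higher and 0 lower.

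In edgeR fits of all 9 samples, no replication gene passed the threshold with either ASXL2 shRNA. Without the number as a term, 0 of the 48 genes were called in SH2 against EV, SH3 against EV, the mean of both against EV or SH3 against SH2, beside 0 of all genes tested in each. At an unadjusted p under 0.05 the fits gave 3, 2, 2 and 0 of the 48 genes, against 5.37%, 5.09%, 6.63% and 2.06% of all genes, and DESeq2 without the number called 0 of the 48. With the number as a replicate block, 0 of the 48 were called again, against 0.282%, 0.416%, 1.10% and 0.106% of all genes. Then 8, 3, 7 and 1 of the 48 genes had an unadjusted p under 0.05, against 18.7%, 18.7%, 20.4% and 11.9%. With the block, log2 fold changes of the 48 genes ran from -0.38 to 0.33 in SH2 and from -0.34 to 0.31 in SH3, with SEs of 0.06 to 0.12. ASXL2 itself was called with the block (SH2 -1.04 ± 0.10, adjusted p = 0.00469; SH3 -1.13 ± 0.10, adjusted p = 0.00407) and not without it. The medians of the 48 genes without the block were 0.07 in SH2 and 0.00 in SH3, and of all genes tested 0.01 in both. Over genes tested, transcript length and the mean log2 fold change with the block had a Spearman correlation of -0.41 (a description over genes of shared libraries). With a length offset and the block 0 of the 48 genes were called, and ASXL2 was at -0.81 in SH2 and -0.96 in SH3. SH2 and SH3 share the EV samples, so their values are given side by side.

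**Figure D5:**
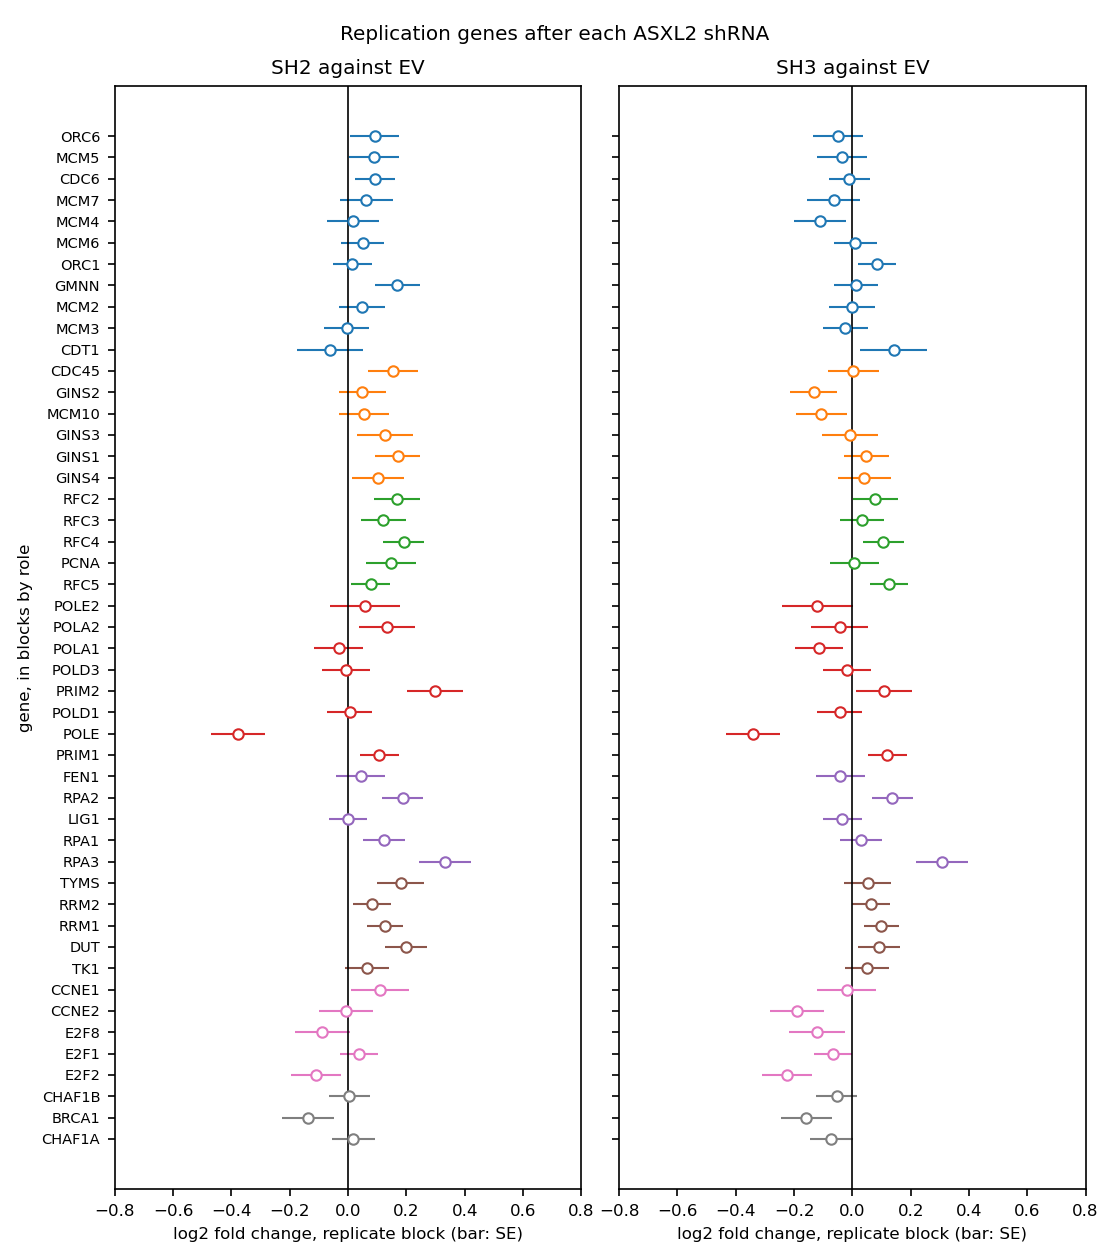
Log2 fold change of SH2 (left) and SH3 (right) against EV for the 48 genes in the fit with the replicate block, with its standard error and coloured by role as in the plot of the samples numbered 1. Open circles mark genes not called, which is every gene in both panels, and POLE and RPA3 lie furthest from 0, on opposite sides.

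The members with the smallest p in both knockdowns were POLE and RPA3. POLE (chr12:133200339-133263962, minus strand), the catalytic subunit of the leading-strand polymerase, was at 422, 422 and 363 CPM in EV (numbers 1, 13 and 25 in turn), at 281, 370.3 and 283 CPM in SH2 and at 289, 337 and 327 CPM in SH3. Each knockdown sample lay below the EV sample of its number in 6 of 6 pairs, but the groups overlapped, at 363 CPM in EV against 370.3 in SH2. With the block its log2 fold changes were -0.38 ± 0.09 (SH2, adjusted p = 0.0995), -0.34 ± 0.09 (SH3, adjusted p = 0.117) and -0.36 ± 0.08 for the mean of both (adjusted p = 0.0631). Its E2F match is among the promoters printed above.

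RPA3 (chr7:7676149-7758238, minus strand) was at 22.4, 26.6 and 24.8 CPM in EV, at 31.8, 29.4 and 31.4 CPM in SH2 and at 27.99, 33.97 and 29.3 CPM in SH3. The 6 knockdown samples lay above all 3 EV samples, as they did for PRIM1, and these were 2 of the 48 genes with no overlap in that direction, against 2.16% of all genes tested. None of the 48 had all 6 below, against 2.61%. With the block the log2 fold change of RPA3 was 0.33 ± 0.09 in SH2 (adjusted p = 0.114), 0.31 ± 0.09 in SH3 (adjusted p = 0.125) and 0.32 ± 0.08 for the mean (adjusted p = 0.0728). PRIM1 had 0.11 ± 0.06 for the mean (adjusted p = 0.291). Its lowest knockdown sample, SH3 numbered 25, was at 45.87 CPM and its highest EV sample, numbered 13, at 45.85 CPM, so the groups barely parted. Whether POLE and RPA3 passed turned on the tool and on 1 sample. DESeq2 with the block called POLE in SH2, SH3 and the mean (adjusted p = 0.00584, 0.0146 and 0.00112) and RPA3 in the mean (adjusted p = 0.0266). These were 1, 1 and 2 of the 48 genes, against 3.08%, 4.04% and 5.50% of the genes to which DESeq2 gave an adjusted p. Without the SH3 sample numbered 1, edgeR with the block called POLE, RPA3, PRIM2 and DUT in SH2 (adjusted p = 0.0139, 0.0200, 0.0337 and 0.0464) and POLE and RPA3 in the mean (adjusted p = 0.0149 and 0.0142). These 4 and 2 of the 48 genes stood against 11.2% and 12.3% of all genes tested.

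The remaining genes named by their p values were not called in either edgeR fit of all samples. DUT was at 191, 209 and 191 CPM in EV, at 232, 219 and 226 CPM in SH2 and at 196, 220.01 and 213 CPM in SH3 (with the block 0.20 ± 0.07 in SH2, adjusted p = 0.184). E2F2 was at 22.6, 24.8 and 21.5, 19.1, 25.7 and 19.5 and 17.7, 21.9 and 19.6 CPM in EV, SH2 and SH3 in turn (-0.22 ± 0.09 in SH3, adjusted p = 0.208). Both overlapped between groups. PRIM2, the regulatory subunit of primase, was at 23.9, 25.9 and 32.7, 32.01, 34.2 and 34.6 and 24.7, 33.01 and 31.1 CPM (0.30 ± 0.10 in SH2, adjusted p = 0.156). GMNN was at 41.5, 51.3 and 48.6, 51.2, 50.6 and 56.7 and 42.1, 51.01 and 49.5 CPM, with a difference of SH3 from SH2 of -0.16 ± 0.08 (adjusted p = 0.455). These groups overlapped too. Of the 51 other replication genes, the 14 of the E2F and RB family, the 10 CDK inhibitors and the 30 G2/M genes, 0 were called in any of the 4 contrasts, with or without the block, in edgeR. At an unadjusted p under 0.05 with the block, SH2 gave 5, 1, 3 and 6 of these genes and SH3 gave 7, 2, 2 and 2, against 18.7% of all genes tested in both contrasts.

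Levels between genes were compared per length of the canonical transcript. The counts are those of the RefSeq row kept per gene, whose transcript may differ in length from the canonical one. By median CPM per kilobase, TYMS (229.8) and PCNA (229.7) stood highest and did not differ beyond their spread over samples (180.1 to 250.1 and 172 to 248). MCM7 followed at 172, and E2F2 was lowest at 4.15. The libraries did not keep strand, and the canonical exons of 20 members overlapped an exon of another gene, 15 of them on the opposite strand. TYMS shared 60.0% of its exon length with ENOSF1 and CCNE2 56.9% with INTS8, both opposite, so their values may hold reads of those partners. On the same strand, POLA2 shared 55.8%, PRIM2 49.7% and PRIM1 25.4% with genes that have no symbol, and PRIM2 38.0% with its pseudogene PRIM2BP. MCM2 shared 32.4% and GINS4 30.4% with long noncoding RNAs on the opposite strand, and DUT 17.1% with the antisense gene DUT-AS1. The other members shared less than these, RPA3 5.84% with UMAD1 among them.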

How the data were processed

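Poly(A) RNA of 9 SKNO-1 samples was sequenced by the authors, and the deposited files give whole-number read counts per RefSeq transcript. The submitters' processing notes name STAR, featureCounts, DESeq2 and hg19, with roles, versions and settings not given in the sources used here, and the kit in the labels does not mark strand. Each file held 48104 transcript rows for 25680 symbols. The row with the highest total was kept per symbol, since summing all rows counted reads 2.24 times on average. Rows of 1 gene share reads, so transcripts were not compared, and 25 of the 48 members had more than 1 row.

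Counts were filtered with filterByExpr (minimum count 10, total 15), scaled by TMM and tested with the quasi-likelihood test of edgeR 4.0.16 in R 4.3.3, with Benjamini-Hochberg adjustment over the 14199 genes tested and a threshold of 0.05. DESeq2 1.42.0 was an alternative. Contrasts of SH2, SH3, their mean and each other used group alone, as the study's methods name no block. Contrasts of numbers used group and number. CPM were computed with TMM library sizes, and fold changes are on the log2 scale. The fits were tested on simulated data.

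The numbers 1, 13 and 25 recur in the labels of all 3 groups. Same-numbered samples deviated together from their group means, with a correlation of 0.60 on average over 9 pairs and 0.40 at the lowest, against at most 0.31 for other pairs, so the fit with the number as a replicate block is given beside the shRNA results. Adding the number lowered the biological coefficient of variation from 0.192 to 0.0875. The study calls its samples biological replicates, but nothing used here says what separates the 3 of a group, so p-values measure the spread between these samples only. The floor of 3 counts covers counting error only, whereas the standard errors come from the edgeR fits and include the spread between samples.

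The members and gene lists were chosen with earlier results of these data known. With every sample's values, the text names in each role the 2 largest and the 1 smallest absolute fold change of number 1, the 3 smallest p in each shRNA contrast, and the 3 largest called changes of each other list. Genes with lengths (86.9% of those tested) took GENCODE v44lift37 canonical transcripts. Alternatives were other tools, scalings and filters, summed rows, a length offset, and each sample left out. Fits of genes with a length alone and fits without the samples numbered 1 were chosen after seeing the data. The summed level of the B cell list is not reported here.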

Additional observations from a re-analysis of the deposited data

Results flagged for a closer look

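The difference of the samples numbered 1 from those numbered 13 and 25 was not the same in EV, SH2 and SH3 for 699 of the 14199 genes tested (edgeR interaction of group with number, adjusted p under 0.05). None of the 48 replication genes was among them, and at an unadjusted p under 0.05 the test gave 17 of the 48, against 23.0% of all genes tested. The fit has 1 sample numbered 1 in each group and 2 residual degrees of freedom, and the SH3 sample numbered 1 stood furthest from its group. The part of that sample in the 699 genes was not tested.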

How the results depend on the processing

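Counts of lower replication genes in the samples numbered 1 stayed within 1.5 times under every alternative run. For the 4 shRNA contrasts (SH2, SH3, their mean against EV, and SH3 against SH2, in this order), 0 genes were called in the fits reported, and the counts moved as follows: 40, 59, 156 and 15 with the replicate block, 22, 26, 56 and 11 with DESeq2, and 369, 474, 629 and 155 with DESeq2 and the block, which also called 1, 1, 2 and 0 of the 48 members. With the block and a length offset the counts were 9, 45, 19 and 17, and with the block on genes with a length alone 37, 95, 155 and 9. With the block and without the samples numbered 1 they were 267, 341, 370 and 129. Pairing by number changed no member's call in edgeR on all samples. Directions turned for values near 0: GMNN in SH3 was -0.070 with the block and length offset, and RPA3 in SH3 against SH2 was 0.055 without the samples numbered 1 and 0.054 with the block added. The median of number 1 was -0.34 with the length offset. Number 25 against 13 gave 4 higher members with DESeq2 and 2 with no filter, and 304 genes with 0 members lower and 0 higher without the group term. The group by number interaction called 232 genes in DESeq2, and 1751 genes and 5 members with no filter. Summing all rows set the mean log2 CPM of the members at 5.76, 5.96 and 6.03 in EV, 5.87, 6.02 and 6.07 in SH2, and 5.64, 6.02 and 6.05 in SH3 (numbers 1, 13 and 25).

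With each sample left out in turn, with and without the block, the shRNA counts ran from 0 to 1604 in SH2, 0 to 368 in SH3, 0 to 1755 for the mean and 0 to 257 for SH3 against SH2, the highest SH2 and mean counts being those without SH3 replicate 1 with the block, and members called from 0 to 4 in SH2 and 0 to 2 for the mean. GMNN in SH3 ran from -0.072 to 0.089. In SH3 against SH2, ASXL2 ran from -0.29 to 0.030, E2F2 from -0.20 to 0.038, POLE from -0.049 to 0.17 and RPA3 from -0.12 to 0.061. For number 1, PRIM1 ran from -0.058 to 0.015, the members' median from -0.34 to -0.20 and the higher members from 1 to 2. Number 25 against 13 ran from 50 to 2750 genes, with 0 to 11 members higher and 0 to 2 lower. The causes of these shifts were not tested.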
